A study of Zea mays with 12 samples.

Results

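Starch genes of the maize seed embryo were examined as 6 rows of the deposited gene table, chosen by symbol: AGP2, AGPLS3 and Agpsemzm (ADP-glucose pyrophosphorylase), ae1_1 and ae1 (listed together as branching enzymes) and amyb5 (a beta-amylase). The table used here holds 99 genes. Symbols of the genes tested run in alphabetical order from a2_1 to ARF16. Shares of tested genes refer to that stretch of symbols, not to the genome. RNA came from embryos of seeds that had taken up water for 2 h in germination paper, in the inbred lines B73 and Mo17. By the labels B73 resists low temperature and Mo17 is sensitive to it. Each line was sampled at 25 °C, the normal condition, and at 10 °C, and each of these 4 groups has 3 biological replicates. No treatment other than temperature is named, and the labels place all 12 libraries in the germination period.

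Starch is built in plastids from ADP-glucose. ADP-glucose pyrophosphorylase makes that sugar nucleotide from glucose 1-phosphate and ATP and is generally seen as the rate-controlling enzyme of starch synthesis. It is a complex of small subunits, which carry most of the catalysis, and large subunits, which mainly set its response to metabolites. Branching enzymes introduce the branch points of amylopectin, and beta-amylases cut maltose from the ends of the chains when starch is broken down. In the maize kernel most starch lies in the endosperm, while the embryo stores mainly oil.

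The deposited annotation placed 5 of the 6 rows in starch and sucrose metabolism. The exception was ae1, described as an ae1 protein precursor, with no enzyme, pathway or ontology term. It spans 675 bases of chromosome 4 (226420583 to 226421257, minus strand), and the table lists it at 0 in all 12 libraries, so it is treated here as a row of that symbol, not as a branching enzyme. The annotated branching enzyme is ae1_1, on chromosome 5 at 172413016 to 172429954 (minus strand), for which RefSeq gives the synonyms ae1 and SBEIIb, the form of branching enzyme that the amylose extender locus of maize encodes. AGP2 lies on chromosome 6 at 170733845 to 170739378 (plus strand). Its annotation names the large subunit of ADP-glucose pyrophosphorylase, although RefSeq also lists Agp2 as a synonym of the small subunit gene Agpsemzm. AGPLS3, a large subunit described as a leaf form, lies on chromosome 7 at 24811792 to 24822545 (minus strand). Agpsemzm, the small subunit, lies on chromosome 2 (178196036 to 178206416, minus strand). amyb5 also lies on chromosome 7, at 160752821 to 160755954 (plus strand). Positions are those of the deposited table, whose build is B73 RefGen_v4 per the submitters' processing notes.

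The libraries differed little in depth, at 0.820 to 1.08 relative to their geometric mean, and replicates of a group correlated at 0.969 to 0.997 over the 76 genes that passed the filter on low values (Pearson r of log2(FPKM + 1), computed across genes, which do not count as replicates). B73 10 °C replicate 1 stood apart, at 0.969 and 0.974 with its own replicates, which correlated at 0.997 with each other. The tissue label could be checked with few genes. Of the listed markers, 1 of 8 for the embryo, 1 of 13 for the endosperm and 1 of 4 for the aleurone were in the table. Most of the others sort after the last tested symbol, ARF16, so their absence says nothing about the tissue. The embryo marker was Agpsemzm itself, at an FPKM of 92.9 to 149. The endosperm marker matched by symbol was the row ae1, which is not the branching enzyme and so checks nothing. The branching enzyme gene ae1_1, to which that marker refers, was at an FPKM of 0.33 to 0.70 in B73 and 2.30 to 4.36 in Mo17. The aleurone marker a2, an anthocyanin enzyme, was matched by symbol to a row that reached an FPKM of at most 0.06. Another row, a2_1, passed the filter. Its log2 difference between Mo17 and B73 was 0.68 at 25 °C and -0.004 at 10 °C (edgeR, adjusted p = 0.0112 and 0.983). Which of these rows holds the enzyme was not checked, so the aleurone marker cannot be called absent. Whether tissue other than the embryo had a part in the line differences was not tested.

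The detected genes ranged from an FPKM of 0.13 for amyb5 to 266 for AGP2. FPKM is the fragment count scaled to gene length and library size. AGP2 came first and Agpsemzm second in all 12 libraries, at 1.29 to 2.65 times the small subunit's FPKM within a library. Agpsemzm exceeded AGPLS3 by 4.04 to 10.8 times. AGPLS3 exceeded ae1_1 in every library, with its lowest FPKM of 11.6 above the highest ae1_1 value of 4.36. At the bottom, ae1_1 exceeded amyb5 by 1.03 to 7.96 times within a library, and the ranges of the genes overlapped across libraries (ae1_1 from 0.33 and amyb5 up to 1.73). The gene lengths that the authors used for FPKM are not given in the sources used here. At equal depth 1 FPKM stood for a count of 248 for AGP2 and of 195 for Agpsemzm, which could not be checked against transcript lengths. The order of AGP2 and Agpsemzm, and more so that of ae1_1 and amyb5, depends on unchecked lengths. By count amyb5 exceeded ae1_1 in B73 25 °C replicate 3 (63 against 57) and B73 10 °C replicate 1 (96 against 93).

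**Figure D1:**
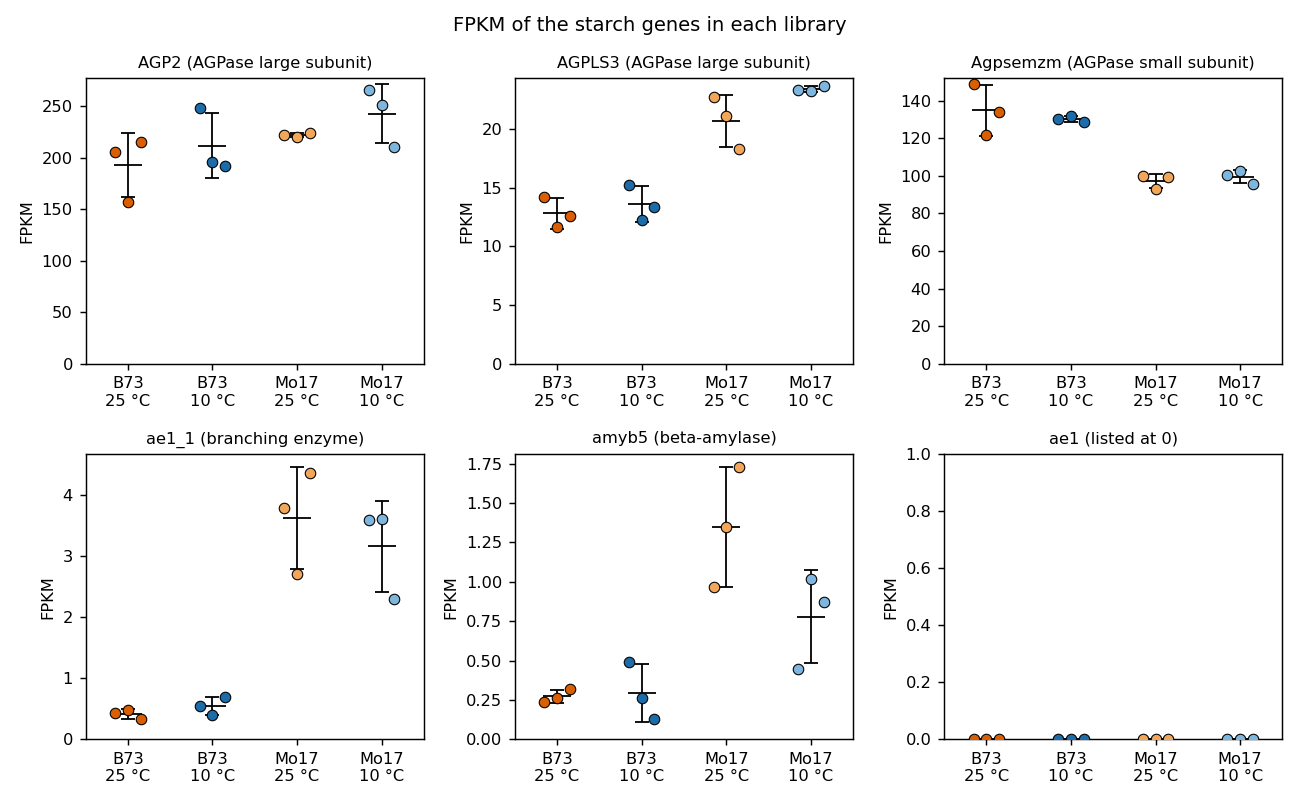
FPKM of each starch gene (y axis, linear from 0, its own scale per panel) in the 3 libraries of each line and temperature (points), with the group mean (wide bar) and SD (capped line). AGPLS3 and ae1_1 were higher and Agpsemzm lower in all 6 Mo17 libraries than in all 6 B73 libraries. Of all tested genes, 69.7% did not overlap between the lines at 25 °C and 60.5% at 10 °C, and the share over both temperatures together was not computed. The temperatures overlapped within a line for most of the starch genes, and ae1 was listed at 0 throughout.

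The first question was how the starch genes differed between the lines. At 25 °C, 4 of the 5 members that could be tested passed the threshold, 3 higher and 1 lower in Mo17, and the same split held at 10 °C. ae1_1 was higher in Mo17 by 8.65-fold at 25 °C, AGPLS3 by 1.61-fold and amyb5 by 4.87-fold, whereas Agpsemzm was lower by 1.39-fold. AGP2 did not pass at either temperature. In whole embryos a difference in RNA per cell and one in the share of cells that make it cannot be told apart. Differences between the lines were common in this table: 61.8% of the 76 genes tested passed at 25 °C and 64.5% at 10 °C (36.8% higher and 25% lower in Mo17 at 25 °C, 36.8% and 27.6% at 10 °C). In the average over both temperatures 3 members passed as higher and 1 as lower in Mo17. Of all tested genes 68.4% passed there, 38.2% higher and 30.3% lower. The balance of higher and lower calls over the table depended on scaling. TMM factors called 26 genes higher and 27 lower at 25 °C, 22 and 32 at 10 °C and 26 and 34 in the average, and quantile normalization 18 and 23, 21 and 21, and 22 and 31. The filter required 3 libraries with an FPKM of 1 or more. ae1_1 passed it through its 6 Mo17 libraries alone and amyb5 through 3 Mo17 libraries alone, so their part in the count follows partly from the filter. The 3 pyrophosphorylase genes passed in all 12 libraries.

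AGPLS3 had an FPKM of 14.2, 11.6 and 12.6 in the B73 libraries at 25 °C and of 22.7, 21.1 and 18.3 in those of Mo17. At 10 °C it stood at 15.2, 12.2 and 13.3 in B73 and at 23.3, 23.2 and 23.7 in Mo17. Every Mo17 library lay above every B73 library. Within a temperature the lines did not overlap for most tested genes (69.7% at 25 °C and 60.5% at 10 °C). The Mo17 values of AGPLS3 at 10 °C were the tightest of the 4 groups, with a coefficient of variation of 1.03% against 10.1% to 11.3% in the others. The log2 difference was 0.69 ± 0.11 (SE, n = 3 libraries per group) at 25 °C and 0.79 ± 0.11 at 10 °C (edgeR quasi-likelihood test, p adjusted by Benjamini-Hochberg over all tested genes = 0.00026 and 9.84e-05). Averaged over both temperatures it was 0.74, with a 95% interval of 0.56 to 0.91, and it stayed between 0.44 and 0.78 over the alternatives.

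Agpsemzm, the small subunit gene, differed in the other direction. Its FPKM was 149, 122 and 134 in B73 at 25 °C against 99.7, 92.9 and 99.1 in Mo17, and 130, 132 and 128 in B73 at 10 °C against 101, 102 and 95.6 in Mo17. The lowest B73 library, replicate 2 at 25 °C, lay above the highest Mo17 library. Lines without overlap were common among tested genes, at 69.7% at 25 °C and 60.5% at 10 °C. The log2 difference was -0.47 ± 0.08 (SE) at 25 °C and -0.39 ± 0.08 at 10 °C (edgeR, adjusted p = 0.000329 and 0.0013), and -0.43 with a 95% interval of -0.55 to -0.31 averaged over both. It kept its sign and its call in every alternative, between -0.72 and -0.39 for the average.

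AGP2, the other large subunit and the gene with the highest FPKM of the 6, showed no such separation. Its FPKM was 206, 157 and 215 in B73 at 25 °C and 222, 220 and 225 in Mo17. At 10 °C it was 248, 196 and 192 in B73 and 266, 252 and 211 in Mo17. The lines did not overlap at 25 °C, by a margin of 4.86 FPKM, but overlapped at 10 °C, where B73 replicate 1 lay above the lowest Mo17 library; 69.7% and 60.5% of all tested genes did not overlap at the 2 temperatures. The log2 difference was 0.21 ± 0.14 (SE) at 25 °C and 0.20 ± 0.14 at 10 °C, with 95% intervals of -0.10 to 0.51 and -0.11 to 0.50, and did not pass (edgeR, adjusted p = 0.223 and 0.252). The average over both temperatures, 0.20 with an adjusted p of 0.0907, passed when B73 10 °C replicate 1 was left out, at 0.27 with an adjusted p of 0.0225 (edgeR). Its sign was not fixed either, since TMM factors gave -0.09 and quantile normalization -0.21.

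ae1_1 had the largest line difference of the group. It stood at an FPKM of 0.44, 0.48 and 0.33 in B73 at 25 °C and at 3.79, 2.71 and 4.36 in Mo17. At 10 °C the values were 0.55, 0.40 and 0.70 in B73 and 3.58, 3.60 and 2.30 in Mo17. The lowest Mo17 library lay well above the highest B73 library, while 69.7% of all tested genes did not overlap at 25 °C and 60.5% at 10 °C. In both lines the FPKM of ae1_1 was far below those of the pyrophosphorylase genes. The log2 difference was 3.11 ± 0.31 (SE) at 25 °C and 2.52 ± 0.30 at 10 °C (edgeR, adjusted p = 5.96e-06 and 2.42e-05). No B73 library reached the filter's FPKM of 1, so the gene was tested because it was high in Mo17, and its adjusted p is to be read with that; without the filter the values were 3.11 and 2.52 (edgeR, adjusted p = 6.15e-06 and 2.8e-05). The difference was smaller on the log2(FPKM + 1) scale, which lessens differences of low genes, at 1.69 and 1.41 with limma and 1.15 and 0.99 after quantile normalization, and passed in every alternative that kept the gene.

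amyb5, the one gene of starch breakdown, had the lowest FPKM of the 5 detected genes in every library. Its FPKM was 0.24, 0.26 and 0.32 in B73 at 25 °C and 0.97, 1.35 and 1.73 in Mo17. The lines did not overlap there, as for 69.7% of all tested genes. At 10 °C the FPKM of amyb5 was 0.49, 0.26 and 0.13 in B73 and 0.45, 1.02 and 0.87 in Mo17. These overlapped, B73 replicate 1 lying above Mo17 replicate 1. The log2 difference was 2.29 ± 0.47 (SE) at 25 °C and 1.39 ± 0.46 at 10 °C (edgeR, adjusted p = 0.00136 and 0.0225). Only 3 Mo17 libraries and no B73 library reached the filter's FPKM of 1. The gene was thus tested because it was high in Mo17, and its adjusted p is to be read with that. Without the filter the values were 2.29 and 1.39 (edgeR, adjusted p = 0.00225 and 0.0357). The difference at 25 °C lost its call under quantile normalization (0.35, adjusted p = 0.062).

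The amyb5 difference at 10 °C rested on little. Its call was lost without B73 10 °C replicate 2 (1.31, adjusted p = 0.0683) or replicate 3 (1.04, 0.0649), and without Mo17 10 °C replicate 2 (1.15, 0.0736) or replicate 3 (1.31, 0.0596; edgeR). TMM factors (1.06, 0.0639), a replicate block (1.36, 0.0533) and a fit of the 6 libraries at 10 °C alone (1.39, 0.0753) also ended it. Quantile normalization turned its direction, at -0.0093 with an adjusted p of 0.989 (limma). Without B73 10 °C replicate 1, the library that stood apart, it was 1.98 with an adjusted p of 0.00262.

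**Figure D2:**
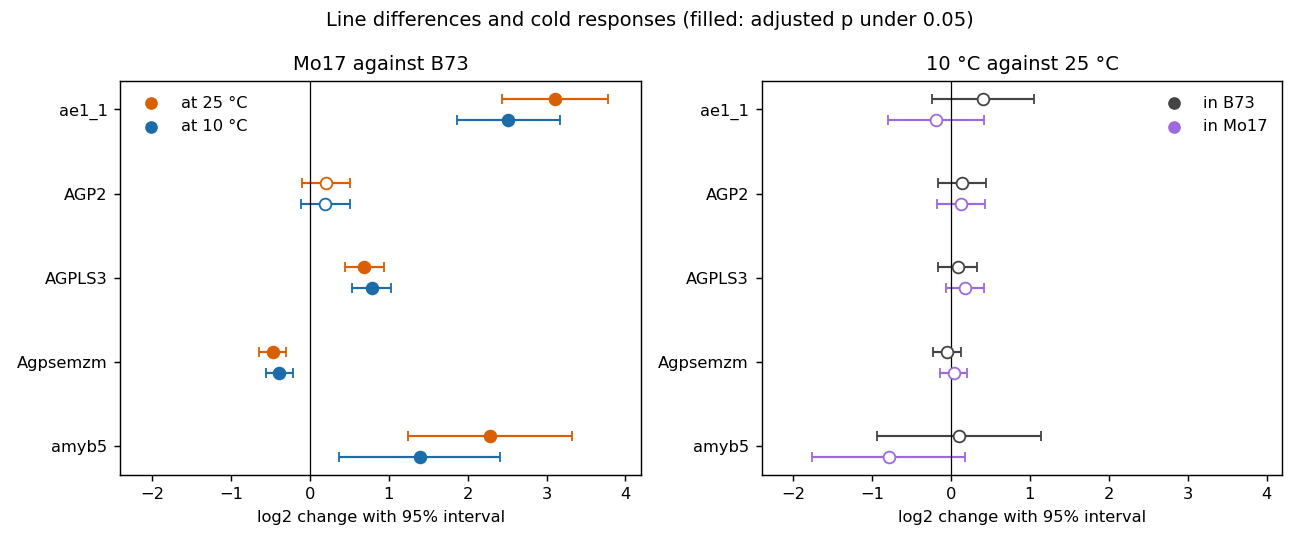
Log2 change (x axis) of the 5 tested starch genes between the lines at each temperature (left) and between the temperatures in each line (right), from the edgeR fit of all 12 libraries. Bars are 95% intervals and filled points have an adjusted p under 0.05. ae1_1, AGPLS3 and amyb5 lie to the right of 0 and Agpsemzm to the left between the lines, while all cold intervals include 0.

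Reads of both lines were assigned to the B73 genome, the build named in the processing notes. Scaling matters for small line differences in this table: the median log2 difference of all tested genes at 10 °C was 0.06 in the reported fit and -0.26 with TMM factors. Ratios between genes of the same library do not depend on library scaling. The balance of pyrophosphorylase subunit genes was therefore compared as ratios of FPKM within each library. Any difference between the lines in how a gene's reads were assigned would remain in such a ratio and was not tested. In B73 at 25 °C the ratio of AGPLS3 to Agpsemzm was nearly constant, at 0.0953, 0.0957 and 0.0941, and at 10 °C it was 0.117, 0.0925 and 0.104. In Mo17 it was 0.228, 0.227 and 0.184 at 25 °C and 0.232, 0.227 and 0.248 at 10 °C. Every Mo17 library lay above every B73 library. The ratio was 2.24-fold higher in Mo17, a log2 difference of 1.16 averaged over the temperatures, 1.15 at 25 °C and 1.17 at 10 °C.

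The ratio of AGP2 to Agpsemzm also separated the lines, although AGP2 by itself did not pass. It was 1.38, 1.29 and 1.61 in B73 at 25 °C and 2.23, 2.37 and 2.27 in Mo17. At 10 °C it was 1.91, 1.49 and 1.49 in B73, with replicate 1 the highest B73 library, and 2.65, 2.46 and 2.21 in Mo17. Again no library of one line overlapped the other, and the ratio was 1.55-fold higher in Mo17 (log2 difference 0.64). Agpsemzm by itself differed by -0.43 on the log2 scale in the average over both temperatures. How often ratios of other gene pairs separated the lines was not computed for any of the ratios. Among single tested genes, 69.7% did not overlap between the lines at 25 °C and 60.5% at 10 °C. Both large subunit genes were thus higher in Mo17 relative to the small subunit gene.

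Between the large subunit genes, the ratio of AGPLS3 to AGP2 was 1.44-fold higher in Mo17 (log2 difference 0.53), with library values of 0.0585 to 0.074 in B73 and 0.0814 to 0.112 in Mo17. All 3 line differences had p = 0.005 in a 2-sided exact permutation test that relabelled libraries between lines within each temperature, the smallest p that its 400 relabellings allow. Adjusted over the 6 ratio tests, which include the 3 for temperature, p was 0.01 for each. The 3 ratios share genes, so that any pair of them fixes the third. The planned ratio of ae1_1 to ae1 could not be formed, because ae1 was listed at 0.

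**Figure D3:**
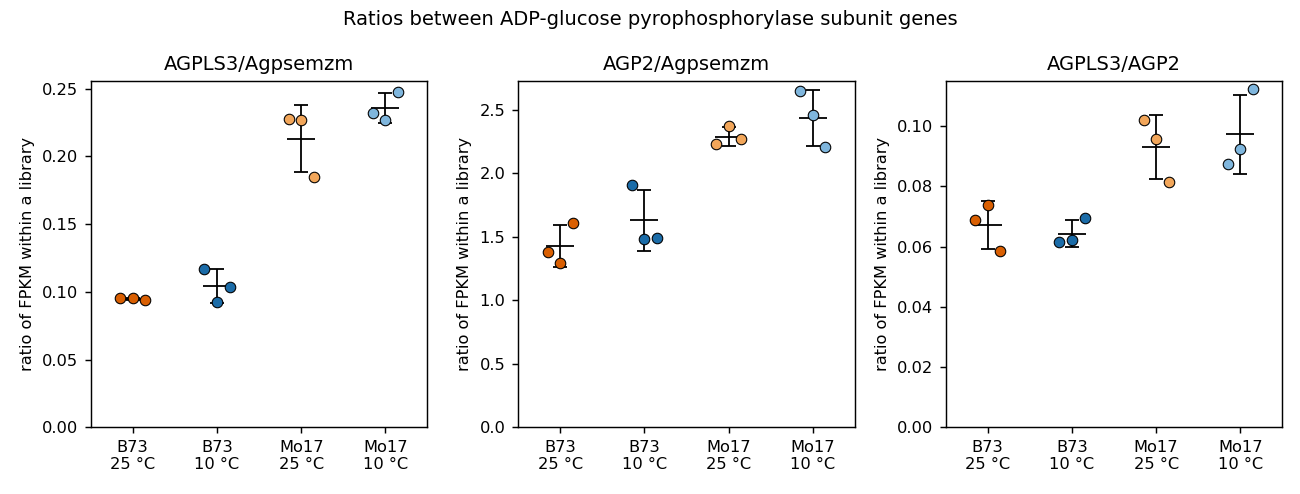
Ratio of FPKM between pairs of ADP-glucose pyrophosphorylase subunit genes within each library (y axis, linear from 0) by line and temperature, with points for libraries, a wide bar for the group mean and a capped line for the SD. In all 3 panels the 6 Mo17 libraries lie above the 6 B73 libraries, and the 2 temperatures of a line lie close together.

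The second question was whether 2 h at 10 °C altered the starch genes. None of the 5 tested members passed in B73 or in Mo17 (edgeR), none had an unadjusted p under 0.05 in either line, and DESeq2 and limma called 0 as well. Few genes passed in the table as a whole, 1.32% of the 76 in B73 and 2.63% in Mo17. That background varied in both lines. In B73 edgeR called 0 with TMM or median-ratio factors and 0 to 2 with 1 library left out, and DESeq2 called 2 lower. In Mo17 DESeq2 called 2 genes higher and 7 lower. There edgeR called 0 without Mo17 25 °C replicate 2 or 3 or Mo17 10 °C replicate 1 or 3. It called 1 higher and 4 lower without Mo17 25 °C replicate 1 or B73 10 °C replicate 1. No starch gene was among these calls. Averaging both lines, 10.5% of genes passed (9.21% lower and 1.32% higher at 10 °C) and again 0 of the 5 starch genes. Their median log2 change in that average was 0.11 against -0.02 for all tested genes.

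For the abundant genes the intervals were narrow. Averaged over the lines, the log2 change of Agpsemzm was -0.01 with a 95% interval of -0.13 to 0.11, the closest to 0 of the 5. That of AGPLS3 was 0.13 with an interval of -0.04 to 0.30, and that of AGP2 was 0.13 with an interval of -0.09 to 0.35. The 3 intervals together ran from -0.13 to 0.35. In Mo17 the AGPLS3 libraries at 10 °C all lay above those at 25 °C (lowest 23.2 against highest 22.7 FPKM), but its log2 change of 0.18 ± 0.11 (SE) did not pass, and 27.6% of tested genes had temperatures that did not overlap in Mo17.

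For the low genes larger changes could not be told from no change. ae1_1 gave a log2 change of 0.40 in B73, with an interval of -0.25 to 1.05, and -0.19 in Mo17, with an interval of -0.80 to 0.41. amyb5 gave 0.10 in B73, with an interval of -0.94 to 1.14, and that value turned to -0.49 without B73 10 °C replicate 1. In Mo17 amyb5 stood at a mean FPKM of 1.35 ± 0.38 (SD, n = 3) at 25 °C and 0.78 ± 0.30 at 10 °C. Its log2 change there, -0.79 ± 0.44 (SE) with an interval of -1.77 to 0.18, did not pass (edgeR, adjusted p = 0.385).

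The last test asked whether the cold response itself differed between the lines (the interaction term). None of the 5 genes passed, as 0% of the 76 did by edgeR's quasi-likelihood test, limma on log2(FPKM + 1) and DESeq2, with 6 genes of the table and none of the starch genes at an unadjusted p under 0.05. Quantile normalization called 2 genes of the table higher and 0 lower, none of them a starch gene. The interaction of amyb5 was -0.89 ± 0.65 (SE) on the log2 scale and that of ae1_1 -0.60 ± 0.40, and the 3 pyrophosphorylase genes lay between -0.01 and 0.09. The subunit ratios did not pass with temperature either. The ratio of AGPLS3 to Agpsemzm was 1.10-fold higher at 10 °C (exact permutation p = 0.09, adjusted over the 6 tests 0.135), as was that of AGP2 to Agpsemzm (exact permutation p = 0.125, adjusted 0.15). The first of these passed when B73 10 °C replicate 2 was left out, at a log2 difference of 0.18 (exact permutation, adjusted p = 0.0225).

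**Figure D4:**
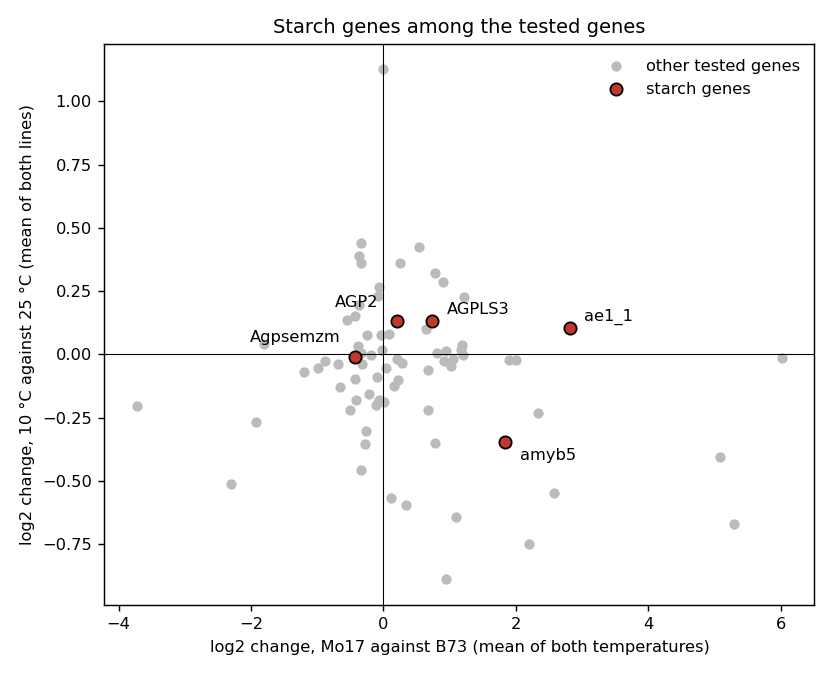
Log2 change between the lines averaged over both temperatures (x axis) against log2 change between the temperatures averaged over both lines (y axis) for the 76 tested genes, with the 5 starch genes in red. The starch genes lie between -0.43 and 2.81 along the line axis and between -0.34 and 0.13 along the temperature axis.

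Libraries of a group moved the pyrophosphorylase genes together in some cases and apart in others. In B73 at 25 °C, replicate 2 was the lowest of its group for AGP2, AGPLS3 and Agpsemzm alike. B73 10 °C replicate 1 was the highest of its group for AGP2, AGPLS3 and amyb5, but not for Agpsemzm, which varied little there (coefficient of variation 1.33%). Mo17 25 °C replicate 3 was the highest of its group for AGP2 and the lowest for AGPLS3. Mo17 10 °C replicate 3 was the lowest for AGP2 and Agpsemzm but the highest for AGPLS3. The spread of AGP2 was 0.97% in Mo17 at 25 °C and 11.8% to 16.2% in the other groups. The low genes varied more, at 18.6% to 27.3% for ae1_1 and 15.2% to 62.2% for amyb5, whose widest group was B73 at 10 °C.

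No further starch gene could be described: none of 32 other symbols of starch synthesis and breakdown fixed as a list was in the table, and the annotation search returned the 5 members already given. Many of the listed symbols, such as sh2, wx1 and bt2, sort after the last tested symbol, ARF16. Their absence says nothing about their expression. Of 7 genes of carbon and energy supply (ald1, adk1, akin1, ANT1, ANT2, adh1 and adh2, enzymes of glycolysis and fermentation, adenylate kinase, a kinase subunit and mitochondrial ADP/ATP carriers), 5 were higher and 1 lower in Mo17 at each temperature, beside the 36.8% higher and 25% to 27.6% lower of all tested genes. The number higher fell to 4 with TMM factors and to 2 at 25 °C with quantile normalization, while 1 was lower under each of these scalings. The lower gene was adk1, at a log2 difference of -1.19 ± 0.10 (SE) averaged over both temperatures (edgeR, adjusted p = 6.07e-07). At 10 °C 1 of the 7 fell in B73, though 0 did with TMM or median-ratio factors, 0 passed in Mo17 and 2 fell in the average of the lines, where 1.32%, 2.63% and 10.5% of all tested genes passed.

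The tested genes whose pattern over the 4 groups was most like that of ae1_1, AGPLS3, Agpsemzm and amyb5 were found as the smallest root mean square difference between group means of log2(FPKM + 1), each gene centred on its own mean. For ae1_1 this was anx2, an annexin, at 0.14. AGPLS3 was closest to aprl5, named for its likeness to adenosine phosphosulfate reductase, at 0.06. Agpsemzm was closest to the uncharacterized gene AI901738 at 0.04, and amyb5 to AN110, a zinc finger protein, at 0.06. With 4 group means a pattern, such likeness mostly restates the line difference.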

How the data were processed

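Polyadenylated RNA of 12 embryo libraries was read in pairs on an Illumina instrument, per the labels' protocols, with a dUTP method that keeps the strand. No source used here says whether the strand was used in counting. Tools listed in the submitters' processing notes, without their roles, are HISAT2 2.0.4, cutadapt 1.9, StringTie 1.3.4d, DESeq2 and edgeR, and the genome build is B73 RefGen_v4. The deposited table holds a count and an FPKM value per gene and library, both made by the authors. No count is 1 or 2 and the smallest above 0 is 3, so a count may not be a single fragment, and no counting intervals or floors are given. Every per-sample column was used.

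Relative depth was the median ratio of count to FPKM over the 48 genes that reached 5 FPKM in every library (largest deviation 0.373%). Absolute depth is unknown. The 76 of 99 genes that reached 1 FPKM in 3 or more libraries were tested with edgeR 4.0.16 in R 4.3.3 (quasi-likelihood, library sizes proportional to relative depth, 1 mean per group over all 12 libraries, 2-sided). The Benjamini-Hochberg adjustment covered all 76, and 0.05 was the threshold. Log2 changes were fitted without a prior count, standard errors are the change divided by the square root of F, and intervals are 95% t intervals with the test's degrees of freedom. Ratios used log2 values with 0.1 FPKM added to each gene. The alternatives were TMM and median-ratio factors, DESeq2 1.42.0, limma 3.58.1 on log2(FPKM + 1), log2(FPKM + 0.1) and quantile-normalized values, other filters and pseudocounts, a replicate block, smaller fits and each library left out. The fits were tested on simulated data. Chromosome numbers come from a match of the transcripts of all 6 genes to the RefSeq table of Zm-B73-REFERENCE-NAM-5.0, whose coordinates were not used. How the authors' counting treated reads shared by close gene copies is unknown.

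The members, lists and tests were chosen with earlier results of these data known. All 6 members are named. Further genes were named if they belonged to the fixed lists and passed where a member passed, or if their pattern was nearest to a member's. The gene nearest to AGP2 in pattern is not reported here.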

Additional observations from a re-analysis of the deposited data

How the results depend on the processing

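Of 319 recomputed line differences of single starch genes, 302 kept their direction and their side of the threshold, as did 403 of 422 cold responses and interactions. These counts are not independent checks. For a comparison within 1 temperature or 1 line, some fits left out a library outside it and could hardly move the value. The AGPLS3 difference at 25 °C, for example, was 0.6911 with and without B73 10 °C replicate 2. With a filter of 5 FPKM, which removes ae1_1 and amyb5, 2 starch genes passed in each of the 3 line comparisons instead of 4. Leaving out 1 library gave 4 at 25 °C, 3 to 4 at 10 °C, 4 to 5 for the average, and 0 for every cold comparison and the interaction. Whether the replicate numbers pair the libraries is not known. After centring on group means, same-numbered libraries of 2 compared groups correlated at -0.45 to 0.41, with 4 of 12 over 0.1. Differently numbered ones correlated at -0.48 to 0.47. With 3 libraries a group such a check cannot exclude pairing. With a replicate block amyb5 lost its call at 10 °C (1.36, adjusted p = 0.0533), and the ratio differences of 1.16, 0.64 and 0.53 had an adjusted p of 0.0625, the smallest that sign flips of 6 pairs allow here. The cold difference of the AGPLS3/Agpsemzm ratio ran from 0.090 to 0.18 over the libraries left out.

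Signs changed 31 times, 30 of them in values that did not pass, and no reversed value passed; the cause was not tested. Quantile normalization turned the amyb5 line difference at 10 °C to -0.0093. The AGP2 line difference turned to -0.051, -0.12 and -0.087 with TMM factors (25 °C, 10 °C, average) and to -0.15, -0.26 and -0.21 with quantile normalization. The cold response of Agpsemzm turned to 0.018, 0.021 and 0.0057 in B73 and to 0.028, 0.066 and 0.0028 in the average (TMM, median ratio, quantile), and its interaction to -0.0057 with quantile normalization. The amyb5 cold response in B73 turned to -0.025 with limma on log2(FPKM + 0.1) and -0.017 with quantile normalization, the ae1_1 cold average to -0.012 with limma on log2(FPKM + 1), and the AGPLS3/AGP2 cold ratio to -0.0025 with a pseudocount of 1. Over the libraries left out, cold responses in B73 ran from -0.0053 to 0.16 for AGPLS3, -0.12 to 0.027 for Agpsemzm and -0.49 to 0.45 for amyb5, the Agpsemzm cold average from -0.043 to 0.030, the AGP2 interaction from -0.097 to 0.12 and the AGPLS3/AGP2 cold ratio from -0.050 to 0.040. With 3 libraries a group, low FPKM values limit what can be said of ae1_1 and amyb5.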
